A study of Saccharomyces cerevisiae with 64 samples.

Results

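Spp1 is a subunit of Set1C, the complex that methylates lysine 4 of histone H3. The regions described here are the 336 nuclear peaks of Spp1-myc at 4 h of meiosis that shared no base with any Spp1-myc peak in pre-sporulation medium or at 0 h. They were chosen by those 3 peak lists and make up 336 of the 1243 nuclear 4 h peaks, and of 53443 nuclear peaks in the 62 lists of the series. They are called new regions, and the other 907 peaks of the same 4 h list are the comparison. Their absence before meiosis and their presence at 4 h in Spp1-myc are therefore how they were chosen, and not a result.

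Spp1 has a PHD finger, which binds H3 methylated at lysine 4, and a CXXC zinc finger motif. In Set1C, Spp1 is needed for full trimethylation, a mark found mainly at the starts of transcribed genes. In meiosis Spp1 also binds Mer2, a protein of the chromosome axis needed for double-strand breaks, and so can tie the marked gene starts in chromatin loops to the axis. Axis proteins are enriched toward gene ends, above all where neighbouring genes face each other. Bre2 is a Set1C subunit not known to take part in the axis function. Nutrient starvation starts sporulation in diploid yeast, and the cells then turn on genes for nitrogen and carbon scavenging and a cascade of early meiotic genes under Ime1.

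Diploid SK1 yeast, a background that sporulates well, was mapped by chromatin immunoprecipitation and sequencing in pre-sporulation medium (SPS) or after transfer to sporulation medium of 1% potassium acetate (SPM). Spp1-myc (SPP1-13xmyc-KanMX4), Bre2-myc (BRE2-13xmyc-NatMX4), and Spp1-myc without its PHD finger (spp1PHDΔ-13xmyc-KanMX4) or without its CXXC domain (spp1CXXCΔ-13xmyc-NatMX4) were each mapped once in SPS and once per SPM time, which were 0, 2, 4 and 6 h. All 4 strains were precipitated with anti-myc and are homozygous for the tag, and the Spp1-myc genotype carries trp1/trp1, ura3/ura3, leu2/LEU2 and HIS4/his4. In 3 further strains Spp1-3xHA was mapped with anti-HA over the same SPM times in 2 libraries per time, going by the genotype and antibody labels, although the sample descriptions call the strains Spp1-myc. Their chromosomal H3 genes HHT1 and HHT2 are deleted, and a centromeric plasmid that also bears HHF2 and TRP1 supplies HHT2 as wild type, as H3K4R (lysine 4 to arginine) or as H3R2A (arginine 2 to alanine). These strains carry lys2 with LYS2 at ho, and trp1-1. In the competition series, one SPP1 allele bears the myc tag and the other a GFP tag under the copper-induced CUP1 promoter. From 4.5 to 6.5 h it was precipitated with anti-GFP in 8 libraries or with anti-myc in 10, and the labels of the anti-myc libraries give only the myc allele.

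Peak lists ran from 87 to 2119 entries, the shortest of them in the competition series. No pair of lists was identical. Depth is unknown because the lists hold peaks without counts of reads, and a region without a peak in a list cannot be told apart from one that missed the caller's threshold. Wilson 95% intervals below cover counting error over regions only. Nothing in the labels states that libraries came from separate cultures, so p-values measure the spread between libraries. The 4 h library of H3R2A replicate 1 is called the one that stood apart, for its likeness to wild type. Over the 1243 regions its shared fraction with its replicate was 0.487 (regions with a peak in both over those with a peak in either). With H3 wild type replicate 1 at 4 h it was 0.747. Other replicates shared as little, with 0.409 and 0.301 in H3 wild type at 4 and 6 h and 0.456 in H3R2A at 6 h. H3K4R replicate 2 at 2 h was also nearer to wild type replicate 1 at 2 h (0.744) than to its replicate (0.698). Results that rest on the library that stood apart are given with and without it. Leaving it out was not planned, and by itself widens the difference from wild type, since it was picked for its likeness to wild type.

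The new regions lay in 306 of 6002 protein-coding genes (5.1%), counted when the middle of a peak was in the coding region or within 500 bp upstream. For 214 of these genes no SPS or 0 h peak of Spp1-myc was assigned to the gene at all, and 92 held an older peak elsewhere. A single gene was assigned to 291 regions, more than 1 gene to 26 and none to 19. New regions were narrow. Their median width was 151 bp (quartiles 151 and 301), against 251 bp for the other 4 h peaks (quartiles 151 and 476), and 45 of the 336 against 227 of the 907 were 500 bp or wider. Scores, a fraction deposited with each peak that runs from 0.5 to 1 in these lists, reached 0.99 in 259 of the 336 (77.1%) and in 86.5% of the others. The median distance to the nearest SPS or 0 h peak was 1209 bp, and 84 regions were closer than 500 bp. Just inside the rule, the region in AZF1 abutted an older peak at 0 bp and the one in PEP4 lay 2 bp away. Just outside it, the peaks in AAT2 and CSR1 shared 21 bp with an older peak and the one in RRP7 shared 31 bp.

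New regions were spread differently along genes than the other 4 h peaks. Coding regions of 1000 bp or more were divided into 5 equal parts from start to stop, and 206 new regions and 440 other peaks could be placed. Part 5, next to the stop codon, held 50 of the 206 new regions (24.3%, 95% interval 18.9 to 30.6) and 13 of the 440 others (2.95%, 1.73 to 4.99). Part 1 held 30.6% of new regions (24.7 to 37.2) and 40.5% of others (36.0 to 45.1). Part 2 held 22.3% and 38.9%. The older lists that the rule set aside were themselves concentrated at gene starts, with 56.8% of placed Spp1-myc 0 h peaks in part 1 and 3.39% in part 5, so the rule itself keeps new regions off many gene starts. No test was made of the positions for that reason. Where a new region lay in a gene with an older peak, it was on the stop-codon side of the nearest older peak in 70 of 89 cases. Because the older peaks lay mostly near gene starts, this count too follows in part from the rule and was not tested.

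**Figure D1:**
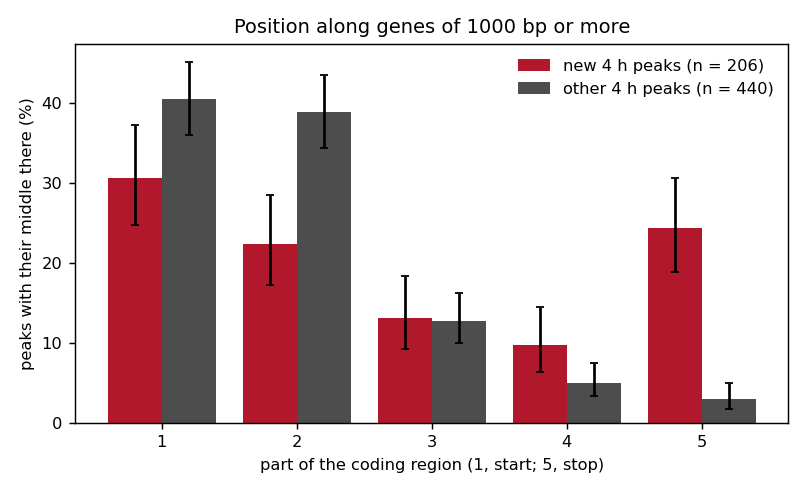
Share of new 4 h regions (red, n = 206) and of the other 4 h peaks (grey, n = 440) with their middle in each of 5 equal parts of coding regions of 1000 bp or more; bars are percentages and whiskers Wilson 95% intervals. Part 5 held 24.3% of the new regions and 2.95% of the others.

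The 50 new regions at gene ends differed in company from those at gene starts. Their genes more often faced the next gene: 36 of 50 (72.0%) had a downstream neighbour on the opposite strand. The share was 43.1% for the 109 new regions in parts 1 and 2 and 51.5% for all 3592 coding genes of that length. Among the other 4 h peaks in part 5, which are few, it was 5 of 13 (38.5%). Older peaks lay mostly near gene starts, so the rule can set aside more gene ends that adjoin the start of a next gene. These shares may thus follow in part from the rule and were not tested. At 2 h the Spp1-myc list held 4 of the 50 (8.0%) and 56 of the 109 at gene starts (51.4%). At 6 h the order was turned, with 33 of the 50 (66.0%) and 51 of the 109 (46.8%). Bre2-myc held few of the gene-end regions at any time, with 0 in SPS and at 0 h, and then 7, 9 and 2 at 2, 4 and 6 h. It held 58, 58 and 47 of the gene-start regions at those 3 times. Of the 13 other 4 h peaks in part 5 it held 69.2%, 76.9% and 38.5%.

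The domain-deleted proteins differed from each other at the gene-end regions. PHD-deleted Spp1 held 9 of the 50 at 2 h (18.0%), 3 at 4 h (6.0%) and 26 at 6 h (52.0%). CXXC-deleted Spp1 held 5 at 2 h (10.0%), 9 at 4 h (18.0%) and 12 at 6 h (24.0%). At the gene-start regions they held 42.2% and 43.1% at 6 h. Each strain has 1 library per time, so none of these differences has a replicate check.

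In the H3 strains the gene-end regions were present in few libraries at 0 h (2.0% and 4.0% in wild type). In H3 wild type they were held at 8.0% and 2.0% at 2 h, 38.0% and 26.0% at 4 h, and 52.0% and 16.0% at 6 h in replicates 1 and 2. In H3K4R the values were 10.0% and 4.0%, 10.0% and 14.0%, and 0.0% and 4.0% at the same times. The wild-type libraries lay above both H3K4R libraries at 4 and 6 h, and the groups overlapped at 2 h. Over all 336 new regions they overlapped at the later times too. Wild type held 50.6% and 26.8% at 4 h and 40.5% and 13.4% at 6 h, and H3K4R 27.7% and 28.0%, then 15.5% and 33.9%. In H3R2A replicate 1 gave 28.0%, 16.0% and 30.0% and replicate 2 gave 2.0%, 4.0% and 4.0%, so the replicates disagreed at every time. Over the 6 libraries of 2 to 6 h the means were 23.7% ± 18.9 in wild type, 7.0% ± 5.18 in H3K4R and 14.0% ± 12.6 in H3R2A (SD, n = 6). In whole lists at 6 h, 38.2% of placed Spp1-myc peaks lay in part 5. The share was 12.1% in CXXC-deleted Spp1, 22.5% in PHD-deleted Spp1 and 3.66% in Bre2-myc. In SPS these strains gave 5.39%, 16.2%, 22.4% and 21.8%, and at 0 h 3.39%, 2.72%, 3.05% and 3.42%, in that order. Only Spp1-myc thus stood far above both its earlier lists at 6 h. The short competition Spp1-myc lists had between 23.4% and 45.5% there.

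**Figure D2:**
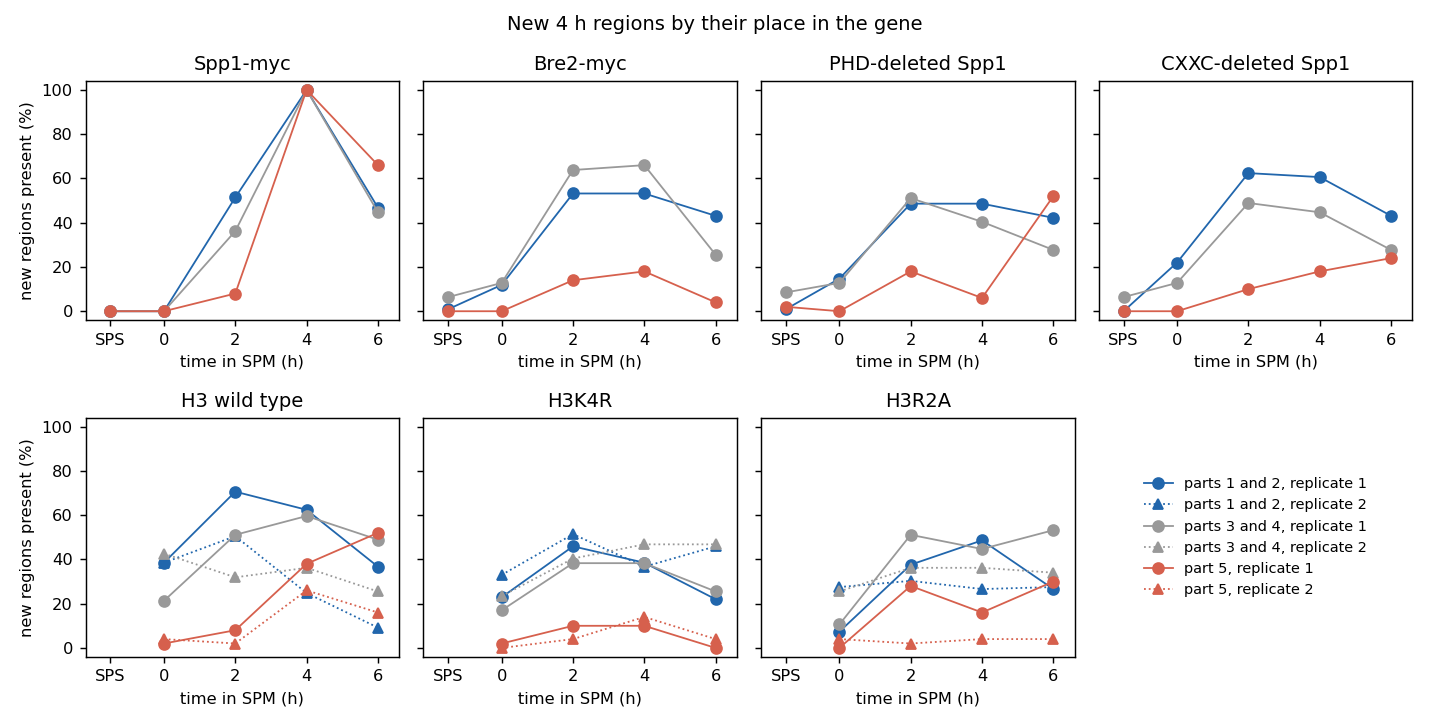
Percent of the new 4 h regions with a peak in each list, by time in SPM (h) or in SPS, for regions in parts 1 and 2 (blue, n = 109), parts 3 and 4 (grey, n = 47) and part 5 (red, n = 50) of the coding region; circles are replicate 1 and triangles replicate 2, 1 library per point. The 4 h Spp1-myc value is 100% by the choice of regions, and gene-end regions stand at 66.0% in Spp1-myc and 4.0% in Bre2-myc at 6 h.

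Gene ends that carried a new region included those of RIM4 (RNA-binding regulator of meiosis, VIII:58516-58716), DUR12 (urea amidolyase, II:636729-637079), ASN1 (asparagine synthetase, XVI:824082-824232), ILV2 (acetolactate synthase, XIII:485851-486001), LEU4 (isopropylmalate synthase, XIV:425016-425166), MET10 (sulfite reductase subunit, VI:216241-216391) and PYC1 (pyruvate carboxylase, with regions at VII:388017-388117 and VII:388317-388517). Coordinates are those of sacCer3. In GLT1 (glutamate synthase) the region at IV:149550-149700 had a score of 0.810. Spp1-myc at 6 h held the regions of RIM4, DUR12 and MET10, but not those of ASN1, ILV2, LEU4, PYC1 and GLT1. Bre2-myc at 4 h held those of RIM4, ASN1, ILV2 and LEU4 and the first of PYC1 (VII:388017-388117). These genes were named from the gene lists and do not stand for all gene-end regions. The gene-end regions were found in 0 to 15 of the 59 lists outside the rule, and the one in RIM4 was in 15.

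New regions formed a larger share of the 4 h peaks on 2 short chromosomes. They were 17 of 34 peaks on III (50.0%, 95% interval 34.1 to 65.9) and 18 of 41 on VI (43.9%, lower bound 29.9). On the short chromosome I they were 8 of 29 (27.6%, 14.7 to 45.7), and on the other 13 chromosomes between 20.5% (XIV) and 34.2% (X). Both lower bounds lie below the upper bound of chromosome I, and no test was made.

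The new regions were found again less often than the other 4 h peaks in most lists, with a median of 10 of the 59 outside lists (range 0 to 40) against 25 (range 1 to 56). At 2 h the Spp1-myc list held 121 of 336 (36.0%, 31.1 to 41.3) against 80.3% of the others, and at 6 h it held 173 (51.5%, 46.2 to 56.8) against 49.2%. Both times held 63 regions, 2 h alone 58, 6 h alone 110, and neither 105. The 63 were wide, with a median of 501 bp, and 57 of them had a Bre2-myc peak at 4 h (90.5%). Of the 110 found at 6 h but not at 2 h, 24 had one (21.8%).

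Set1C itself was followed through Bre2. The Bre2-myc list held 26 new regions at 0 h (7.74% against 62.2% of the others), 138 at 2 h (41.1%), 143 at 4 h (42.6% against 66.5%) and 106 at 6 h (31.5%). At 4 h PHD-deleted Spp1 held 119 (35.4% against 55.9% of the others) and CXXC-deleted Spp1 held 159 (47.3% against 81.4%). All 3 of these 4 h lists held 76 of the new regions and 123 were in none of them. When the choosing rule was applied inside each strain, 121 of the 143 regions with a 4 h Bre2-myc peak had none in that strain's SPS and 0 h lists (84.6%), as had 93 of 119 in PHD-deleted Spp1 (78.2%) and 115 of 159 in CXXC-deleted Spp1 (72.3%). Among the other 4 h peaks the same shares were 14.6%, 10.5% and 9.62%. The other peaks overlap older Spp1-myc peaks by the choice of regions, so their shares are a reference and not a test.

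**Figure D3:**
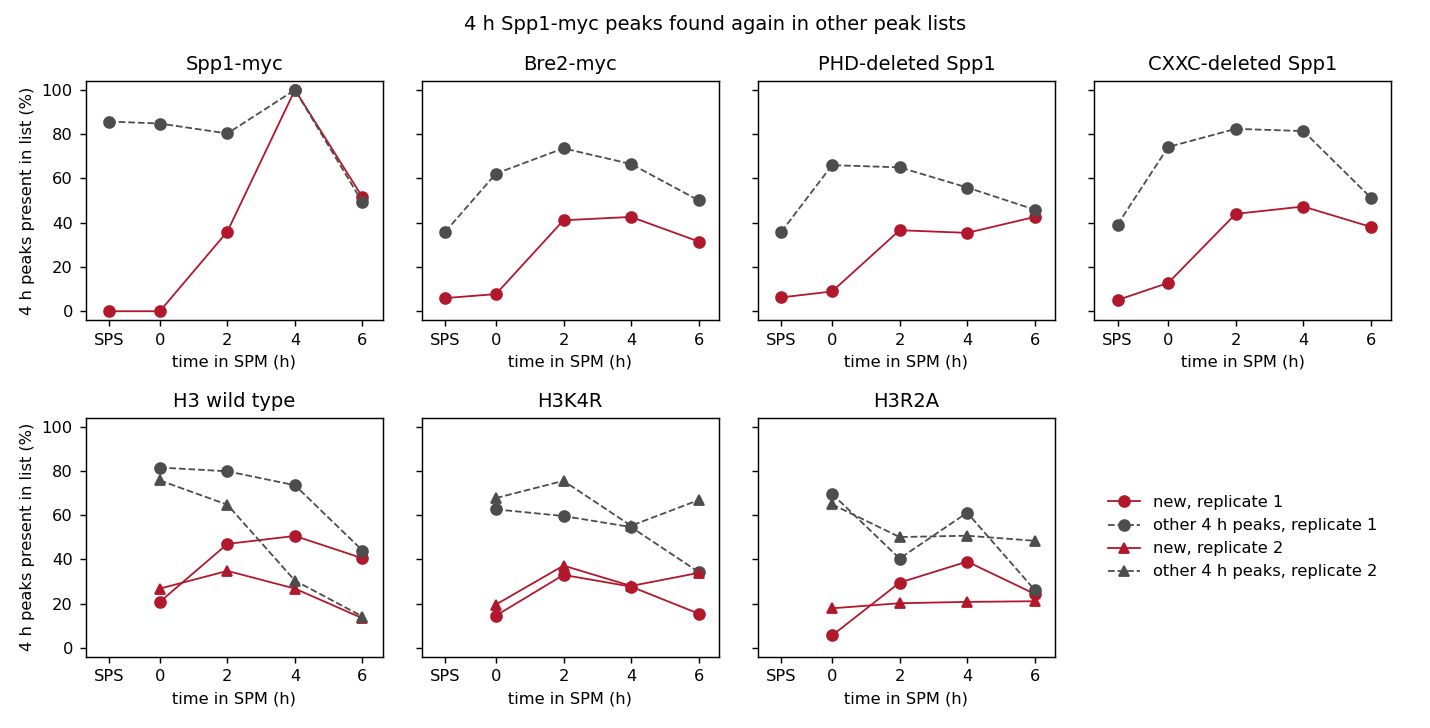
Percent of the 336 new regions (red) and of the 907 other Spp1-myc 4 h peaks (grey, dashed) with a peak in each list, by time in SPM (h) or in SPS; circles are replicate 1, triangles replicate 2, 1 library per point. Spp1-myc values in SPS and at 0 and 4 h follow from the choice of regions. At 6 h Spp1-myc held 51.5% of the new regions and 49.2% of the others.

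The 12 regions with 1 gene, a score deposited as 1 and the greatest width (the order among equal scores) lay in GAP1, INO1, CAR2, DLD3, MET6, MEP1, ARG1, MEP2, FOX2, HXT5, OAC1 and CAT2. Beside the nitrogen and amino acid genes described below, they include the peroxisomal fatty acid enzyme of FOX2, the hexose transporter of HXT5, the mitochondrial oxaloacetate carrier of OAC1 and the carnitine acetyltransferase of CAT2. The widest, 1651 bp at XI:515103-516753, covered most of GAP1, the general amino acid permease that is made when good nitrogen sources run out. Peaks covered 0.0% of its coding region in Spp1-myc SPS and at 0 h, 5.58% at 2 h, 91.3% at 4 h and 94.0% at 6 h. In PHD-deleted Spp1 the cover was 77.4%, 44.3% and 80.2% at 2, 4 and 6 h, and in CXXC-deleted Spp1 44.3%, 38.8% and 44.3%. In Bre2-myc it was 88.5% at 4 h and 91.3% at 6 h, and the gene was already widely covered at 2 h in Bre2-myc and not in Spp1-myc. Cover of INO1 (inositol-3-phosphate synthase, X:134450-135900) in Spp1-myc was 53.1% at 2 h, 90.6% at 4 h and 93.7% at 6 h. MEP2, the ammonium permease that also senses ammonium, went from 0.0% at 2 h to 80.1% at 4 h and 93.4% at 6 h in Spp1-myc, and from 36.7% at 2 h to 76.7% and 80.1% in Bre2-myc. In CXXC-deleted Spp1, MEP2 cover was 10.1%, 0.0% and 23.4% at 2, 4 and 6 h.

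MET6 (methionine synthase) and ARG1 (argininosuccinate synthetase) had their widest cover earlier. In Spp1-myc, MET6 cover was 36.9% at 2 h, 67.4% at 4 h and 26.1% at 6 h, and in Bre2-myc it was 96.7%, 96.7% and 17.4%. ARG1 cover was 98.2%, 98.3% and 67.4% in Spp1-myc, and in Bre2-myc it was complete at 2 and 4 h and 51.5% at 6 h. GAP1, INO1 and MEP2 thus kept or gained cover at 6 h while MET6 and ARG1 lost it, in 1 library per time.

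**Figure D4:**
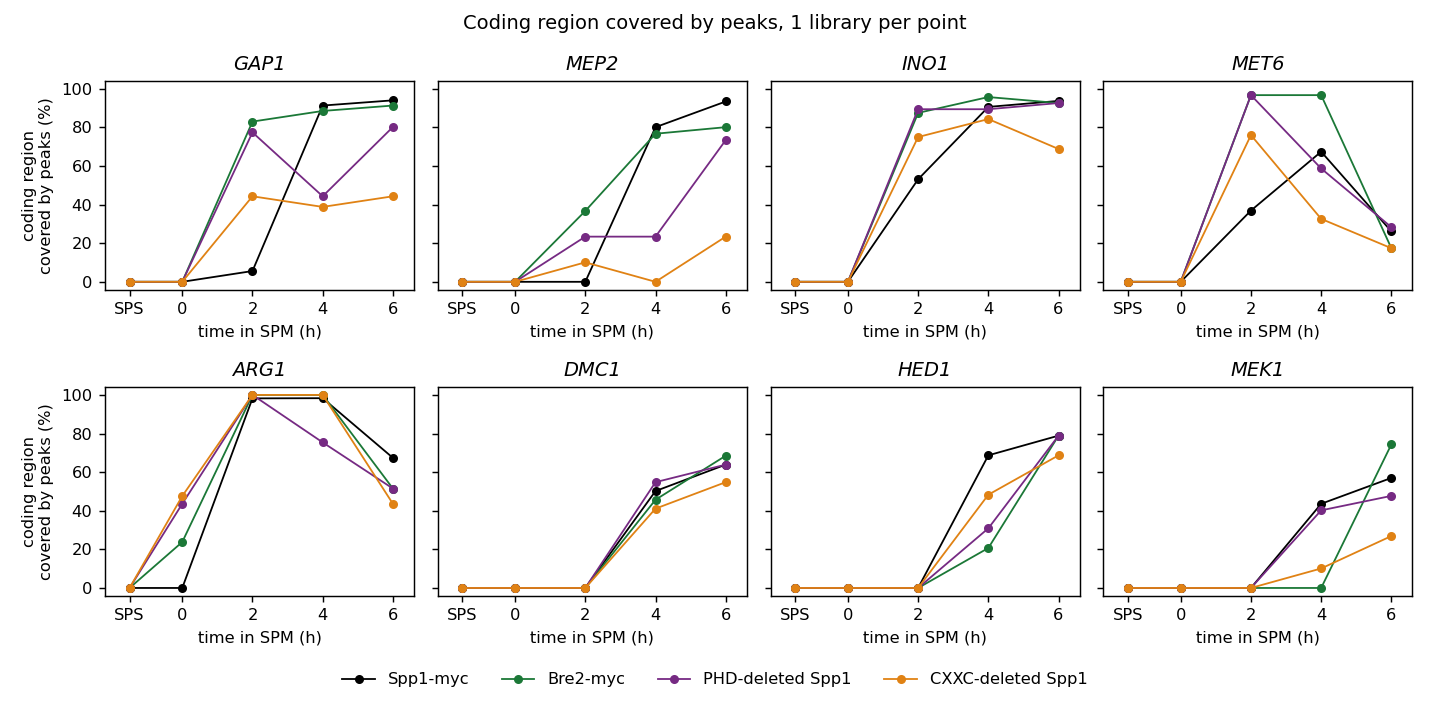
Percent of the coding region covered by peaks in 8 genes with a new region, by time in SPM (h) or in SPS, for Spp1-myc (black), Bre2-myc (green), PHD-deleted (purple) and CXXC-deleted Spp1 (orange), 1 library per point. GAP1 and INO1 stay covered at 6 h, MET6 falls from 67.4% to 26.1% in Spp1-myc between 4 and 6 h, and DMC1, HED1 and MEK1 have no peak before 4 h in any of the 4 strains.

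The gene lists below were drawn up with earlier results of these data known, so their counts are descriptions. Of 6002 coding genes 5.1% held a new region. Nitrogen scavenging genes did so in 14 of 45 cases (31.1%): GAP1, the 3 ammonium permeases MEP1, MEP2 and MEP3, DAL5 (allantoate permease), DUR12, AGP1 and CAN1 (amino acid permeases), CAR2 (arginine breakdown), GDH3 and GLT1 (glutamate synthesis), and the activators UGA3, PUT3 and GAT1. Their 16 regions lasted, with 4 present at 2 h and 12 at 6 h in Spp1-myc, and a median of 3 of 6 H3 wild-type, 5 of 6 H3K4R and 4.5 of 6 H3R2A libraries of 2 to 6 h. Over all 336 regions the medians were 2, 1 and 1. Of the 16 nitrogen regions, wild-type replicate 1 held 10, 14 and 11 at 2, 4 and 6 h, and replicate 2 held 9, 6 and 5. H3K4R replicates held 9, 14 and 10 and then 9, 12 and 13, so the lower wild-type median rests mainly on replicate 2.

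Amino acid synthesis genes held new regions in 21 of 61 cases (34.4%), in the arginine (ARG1, ARG56, ARG7), histidine, lysine, aromatic and branched-chain pathways. Their 26 regions came and went earlier than the nitrogen ones, with 16 present at 2 h and 9 at 6 h in Spp1-myc, and 21, 19 and 6 at 2, 4 and 6 h in Bre2-myc. More H3K4R than wild-type libraries held 18 of the 26, and fewer held 1. H3 wild-type replicates disagreed here: replicate 1 held 17, 18 and 8 at 2, 4 and 6 h and replicate 2 held 3, 2 and 1. Sulfate assimilation and methionine genes held new regions in 8 of 33 cases (24.2%), among them MET6, MET28 (a cofactor of the methionine gene activators), SAM3 (S-adenosylmethionine permease) and MUP3 (methionine permease). Their medians were 3 of 6 wild-type, 6 of 6 H3K4R and 6 of 6 H3R2A libraries. The wild-type replicates differed here too. Of the 9 regions, replicate 1 held 7, 9 and 6 at 2, 4 and 6 h, and replicate 2 held 5, 3 and 4. H3K4R replicates held 8, 8 and 7 and then 9, 6 and 8. H3R2A replicates held 9, 7 and 7 and then 8, 6 and 6.

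TRP1, LYS2 and HIS4 in the amino acid list are altered in the strains. The TRP1 region (IV:462250-462400) was in every one of the 24 H3-strain lists, where a plasmid bears TRP1, and in 27 of the 59 outside lists in all. The part of the plasmid in that value was not tested.

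Carbon genes took part too. Acetate use, glyoxylate cycle and gluconeogenesis genes held new regions in 9 of 26 cases (34.6%), but 8 of those 9 also had an SPS or 0 h peak elsewhere in the gene. PYC1 alone held 4 regions, and CAT2 and YAT2 (carnitine acetyltransferases) 2 each. Of their 14 regions 5 were present at 2 h and 3 at 6 h in Spp1-myc, while 13 were in CXXC-deleted Spp1 at 4 h. Iron and copper uptake genes held new regions in 6 of 36 cases (16.7%): CTR1 and CTR3 (copper transporters), FRE1 (ferric reductase), FET4 (low-affinity iron transporter), SIT1 (siderophore transporter) and MRS4 (mitochondrial iron carrier). All 6 were present in Spp1-myc at 2 h and 3 at 6 h, and 5 of the 6 were in none of the 6 H3K4R libraries of 2 to 6 h, as were 159 of all 336 new regions. In none of the 6 wild-type libraries were 1 of the 6 and 99 of all 336. H3 wild-type replicate 2 held none of the 6 at 2, 4 or 6 h, and replicate 1 held 4, 3 and 2.

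In ribosomal protein genes, 1 of 138 held a new region (0.725%, against 5.1% of all coding genes; RPL15B, whose near-identical copy RPL15A makes the assignment uncertain), although 108 of the 138 had an SPS or 0 h peak. No new region lay in the lists of translation factors (26 genes), glycogen and trehalose (18), double-strand break machinery (12), middle and late sporulation (43) or Set1C subunits (8), most of which are too short for a share of 5.1% to give more than a gene or so. The remaining lists lay above that share by small counts. They were TCA cycle and respiration genes with 4 of 53 (7.55%), autophagy and vacuolar protease genes with 4 of 29 (13.8%; PEP4, PRC1, APE3, CPS1), heat shock and stress genes with 3 of 44 (6.82%), inositol and phospholipid genes with 3 of 24 (12.5%), glycolysis genes with 2 of 25 (8.0%) and core histones with 1 of 11 (9.09%; HHO1, the linker histone).

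Early meiotic genes held 13 new regions. Meiotic entry regulators held new regions in 4 of 16 cases, IME1, IME2, UME6 and RIM4. IME1 is the activator that starts the programme, IME2 a meiotic kinase and UME6 the DNA-binding factor that recruits Ime1. Axis and synapsis genes did so in 3 of 14 cases: HOP1, a component of the axis, MEK1, the kinase that acts with it, and ECM11, a part of the synaptonemal complex. Strand exchange genes did so in 2 of 17 cases: DMC1, the meiotic recombinase, and HED1, a meiosis-specific gene. Neither of the last 2 lists had a gene with an SPS or 0 h peak of Spp1-myc. The 13 regions of these 9 genes were found in Spp1-myc at 2 h in 4 cases and at 6 h in 12.

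DMC1 is described here across the strains outside the competition series. Peaks covered 0.0% of its coding region at SPS, 0 and 2 h in Spp1-myc, Bre2-myc and both domain-deleted strains. At 4 and 6 h the cover was 50.2% and 63.9% in Spp1-myc, 45.7% and 68.5% in Bre2-myc, 54.8% and 63.9% in PHD-deleted and 41.1% and 54.8% in CXXC-deleted Spp1. In H3 wild type it was 59.3% and 93.2% at 2 h, 59.3% and 68.5% at 4 h, and 54.8% and 0.0% at 6 h in replicates 1 and 2. It was 0.0% in all 8 H3K4R libraries. In H3R2A it was 63.9% in the 4 h library of replicate 1, the one that stood apart, and 0.0% in the other 7. HED1, IME2, UME6, MEK1 and ECM11 likewise had no peak in any H3K4R library, and in H3R2A had one in that library only.

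Across all 13 meiotic regions, H3 wild-type libraries held 12, 12 and 12 at 2, 4 and 6 h in replicate 1 and 12, 12 and 4 in replicate 2. H3K4R libraries held 1, 1 and 1 and then 1, 1 and 3. H3R2A libraries held 0, 12 and 3 in replicate 1 and 0, 2 and 4 in replicate 2. The wild-type and H3K4R groups did not overlap, though the 6 h libraries of replicate 2 were close, at 4 and 3. Over all 336 new regions the groups did overlap, at 13.4% to 50.6% in wild type and 15.5% to 37.2% in H3K4R. Libraries of different times were pooled in the percentages that follow. Of the possible region and library pairs 82.1% were filled in wild type, 10.3% in H3K4R and 26.9% in H3R2A, or 13.8% in H3R2A without the library that stood apart. At 0 h wild-type libraries held 3 and 3, and H3K4R 1 and 1. Only regions of IME1 and RIM4 were still found in H3K4R, and not all of them. The IME1 region at X:604700-604850 and the RIM4 region at VIII:58516-58716 were in no H3K4R library. Meiotic progression in these cultures was not measured in the files, and its part in the difference was not tested.

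**Figure D5:**
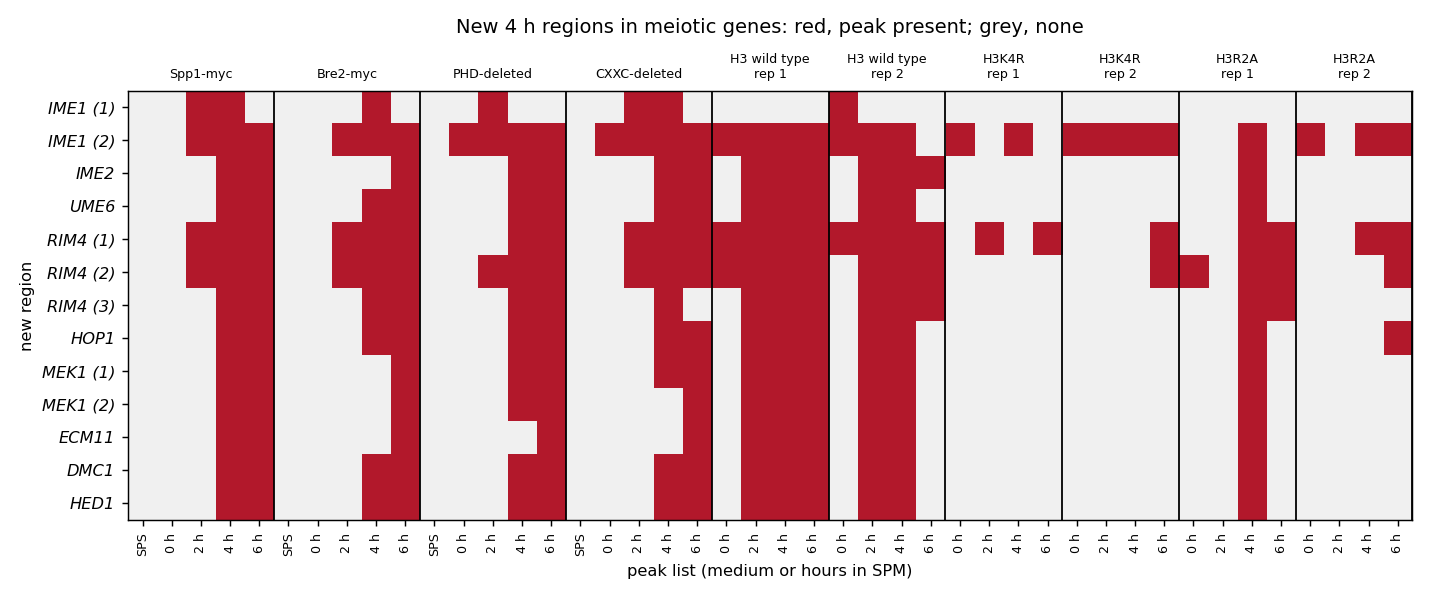
Peaks (red) or no peak (grey) at the 13 new regions of 9 early meiotic genes (rows) in the 44 lists outside the competition series (columns, SPS or hours in SPM). Red fills 12 of the 13 rows in the H3 wild-type columns from 2 h except the 6 h column of replicate 2, 1 to 3 rows in the H3K4R columns from 2 h, and 12 rows in the 4 h column of H3R2A replicate 1.

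The H3 mutants were tested region by region over all 4 h regions with a peak in at least 1 tested library, with Fisher's exact test, two-sided, and Benjamini-Hochberg adjustment. Between H3K4R and wild type at 2, 4 and 6 h (6 against 6 libraries, 1102 regions of which 262 new) 0.0% of regions passed an adjusted p of 0.05 in either direction, and the lowest adjusted p was 0.217. At an unadjusted p under 0.05, 23 new regions were lower in H3K4R, with 3.27% of all tested regions as background (23 of 262 is 8.78%), and 4 were higher, with 1.27% as background. Present in 6 of 6 wild-type and 0 of 6 H3K4R libraries (exact p = 0.00216) were the regions in IME2 and RIM4 (VIII:58516-58716), one upstream of MMS1 and one upstream of both SSH1 and YBR284W. Present in 5 against 0 (exact p = 0.0152, adjusted p = 0.334) were 18 new regions, 7 of them in the meiotic genes DMC1, HED1, HOP1, MEK1, ECM11 and UME6 and 11 elsewhere. The latter lay in or upstream of EAF1, DOC1 and CSE1, MES1, ATG45, MGA2, HSP60, SRT1, FKS3, TRM10 and LPX1, and 1 had no gene. In the other direction TCM62 (mitochondrial assembly factor) and FCY2 (purine and cytosine permease) were present in 0 of 6 wild-type and 6 of 6 H3K4R libraries. Except for HSP60, the genes outside the meiotic lists were chosen after their values were seen. None of these differences passed the adjusted threshold. The lowest p that 6 against 6 libraries can give is 0.00216, so after adjustment over 1102 regions a region can pass only if many others reach that value too. Without H3 wild-type replicate 1, 5 new regions were lower at an unadjusted p under 0.05 (2.17%, with 1.44% of all regions tested), and without replicate 2, 31 were (12.1%, with 5.93%). Wild type then has 3 libraries, and 2 of 3 against 0 of 6 does not reach that p. The regions of DMC1, HED1, HOP1, MEK1, ECM11 and UME6 were in wild-type replicate 2 at 2 and 4 h and missing from its 6 h list.

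New regions as a set were present in 35.5% ± 13.8 of cases in wild type, 29.2% ± 7.66 in H3K4R and 25.8% ± 7.30 in H3R2A (SD, n = 6 libraries of 2 to 6 h; 23.2% ± 3.85 in 5 H3R2A libraries without the one that stood apart), with overlapping spreads. The other 4 h peaks gave 51.1% ± 25.9, 57.7% ± 13.9 and 46.1% ± 11.8. Fewer H3K4R than wild-type libraries held 39.0% of the new regions and more held 28.9%, against 26.0% and 47.6% of the others.

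Between H3R2A and wild type (1065 regions, 256 new) 0.0% passed in either direction, and the lowest adjusted p was 0.896. At an unadjusted p under 0.05, 4 new regions were lower in H3R2A (background 1.13%), those in IME2 and LPX1, upstream of MMS1, and upstream of SSH1 and YBR284W. LPX1 and FAS1 were chosen after their values were seen. The region in FAS1, a fatty acid synthase subunit, was higher (background 0.563%), with 5 of 6 H3R2A and 0 of 6 wild-type libraries. Without the H3R2A library that stood apart, 27 new regions were lower at an unadjusted p under 0.05 (10.7%, with 5.67% of all 1059 tested). Then 4 were higher (1.58%, with 1.51%), and the lowest adjusted p was 0.153 by Fisher's exact test. That library was picked for its likeness to wild type, so a rise in lower regions is built into that choice.

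Time was tested in the H3 strains by setting the 18 libraries of 2 to 6 h against the 6 of 0 h (1135 regions, 277 new). At an adjusted p of 0.05 by Fisher's exact test, 7 new regions were more often present later (background 1.06%) and 2 less often (background 2.64%). At an unadjusted p under 0.05 there were 27 (background 4.85%) and 8 (background 12.2%). A second region of MET6 (V:340190-340490) was present in 17 of 18 later libraries and 0 of 6 at 0 h (Fisher's exact test, adjusted p = 0.0118). The region of AGP1 (III:76520-76670) was present in 18 of 18 and 1 of 6 (Fisher's exact test, adjusted p = 0.0267). INO1 had 17 of 18 and 1 of 6, and PHO8, the vacuolar alkaline phosphatase, 15 of 18 and 0 of 6 (adjusted p = 0.0354 for both by the same exact test). ENA1, a sodium pump with near-identical neighbours that make it uncertain, also had 17 of 18 and 1 of 6. MEP2 and AQY1, a water channel of spores, had 14 of 18 and 0 of 6 (exact test, adjusted p = 0.0422).

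Regions less often present later in the H3 strains were those of POT1, the peroxisomal thiolase of fatty acid breakdown, with 3 of 18 and 6 of 6, and of CTA1, the peroxisomal catalase, with 1 of 18 and 5 of 6 (exact test, adjusted p = 0.0354 for both). Only the region in CTA1 was new in Spp1-myc, since other peaks covered 22.7% of that gene at 0 h in Spp1-myc, whereas POT1 had none in SPS or at 0 h. H3 wild-type lists held 20.8% and 26.8% of all new regions at 0 h, H3K4R 14.6% and 19.6% and H3R2A 5.65% and 17.9%. The calls rest on the 6 libraries of 0 h: without any 1 of them, 1 or 2 regions were called higher and 0 or 1 lower. Without any 1 later library, 5 to 10 were called higher and 2 to 5 lower.

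In the competition series few new regions were seen. Spp1-GFP libraries held 18.8% and 24.4% of them at 4.5 h, 7.14% and 5.65% at 5 h, and 1.79% and 2.98% at 5.5 h in replicates 1 and 2, then 3.27% at 6 h and 0.595% at 6.5 h. Spp1-myc libraries of that series held 0.0% to 2.38%. The other 4 h peaks followed the same course, with 30.8% and 36.6% at 4.5 h in Spp1-GFP, and the lists themselves shrank from 480 and 670 nuclear peaks at 4.5 h to 113 and 114 at 5.5 h. Between Spp1-GFP and Spp1-myc at 4.5, 5 and 5.5 h (6 against 6 libraries, 474 regions, 92 new) 0.0% of regions passed, and the lowest adjusted p among new regions was 0.653. At an unadjusted p under 0.05, 3 new regions were higher for Spp1-GFP (background 2.32%), those of CUZ1, COX23 and ISA1, each in 5 of 6 and 0 of 6 libraries, and none was lower (background 0.0%). The meiotic regions stood out in the 4.5 h lists, where Spp1-GFP held 11 and 12 of the 13 and Spp1-myc 2 and 2. Of these regions, the first of RIM4 (VIII:56666-57166) was in 7 of 8 Spp1-GFP and 5 of 10 Spp1-myc libraries. That of IME2 was in 5 of 8 and 0 of 10. The Spp1-myc lists of 4.5 h had only 78 and 51 nuclear peaks in replicates 1 and 2, against 480 and 670 for Spp1-GFP. Each of these Spp1-myc lists held 1.79% of all new regions. Differences between the tags in this series cannot be told apart from list length.

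The regions found in most outside lists were those of RGI2, a respiratory growth gene (40 of 59), PHO4, the phosphate regulator (39), ARG1, the first region of RIM4 and PDH1 (37 each), INO1 (36), MUP3 (35) and CAR2 (34), with ties broken by score. At the other extreme, 10 regions were in none of the 59, among them those of RRN11, VTC2, ASF1, CFD1, LSB3, DEF1, GAS5 and ATG18. Their scores at 4 h ran from 1.00 in RRN11 to 0.730 in ATG18, and they rest on the 1 Spp1-myc 4 h library alone.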

How the data were processed

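The files are 62 deposited peak lists in sacCer3 coordinates. The submitters' processing notes name BWA and deepTools without versions. They give no peak caller, threshold or control. Each peak has a width and a score, deposited by the authors as a fraction between 0.5 and 1 and not described further in the labels. The input and untagged samples were not analysed here. SK1 reads placed on the sacCer3 reference can be lost or misplaced where the strains differ.

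The regions, gene lists and tests were chosen with earlier results of these data known. New regions share 0 bases with the SPS and 0 h Spp1-myc lists on the 16 nuclear chromosomes. A region was present in a list when it shared at least 1 base with a peak there. Genes were assigned when the peak's middle lay in the coding region or the 500 bp before it, with names and positions from the RefSeq gene table of the same assembly. Coding regions under 1000 bp were left out of the 5-part positions. Presence in H3 and competition libraries was compared with Fisher's exact test, two-sided, adjusted by Benjamini and Hochberg over all 4 h regions with a peak in at least 1 tested library. Libraries of 2, 4 and 6 h were pooled in these tests. Named genes are the 12 single-gene regions of highest score (ties by width), the 8 in most of the 59 outside lists, the 8 of highest score in none, the regions called by a test and the members of the gene lists; others are said to be chosen after their values were seen. Alternatives were a 500 bp distance, 50% cover, higher scores, lists of equal length, strata, a replicate block and leaving out replicates or libraries. The test was checked on simulated data. Python 3.11.15, numpy 2.4.6, pandas 2.3.3, scipy 1.17.1 and matplotlib 3.10.9 were used. A planned motif search was not run.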

Additional observations from a re-analysis of the deposited data

Results flagged for a closer look

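Of the 52 Spp1-myc 4 h peaks on the sequence that the lists name chrXVII, which is not one of the nuclear chromosomes and was outside every comparison, 9 shared no base with an SPS or 0 h peak (17.3%). It was noted because it is signal outside the measured regions, and no control list was used here. In the 5 groups of 4 to 10 libraries whose share of new regions was examined, no library was far enough from the rest of its group to be noted here. That covers this share only, and not the likeness by which the 4 h library of H3R2A replicate 1 stood apart.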

How the results depend on the processing

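Restricting the 4 h list to peaks at or above its median score left 114 new regions in 108 genes, with 18.8% of those placed in part 5. Their presence was then 61.4% in Spp1-myc at 2 h and 75.4% at 6 h, 68.4% in Bre2-myc, 64.0% in PHD-deleted, 78.1% in CXXC-deleted Spp1, 43.4% in H3K4R and 48.2% in H3R2A, each at 4 h where no time is given. With every other list cut to its higher-scoring peaks, the values were 23.2% and 35.1% for Spp1-myc at 2 and 6 h, 24.4% for Bre2-myc, 19.0% for PHD-deleted, 25.3% for CXXC-deleted, 16.8% for H3K4R, 22.3% for H3 wild type (38.7% with full lists) and 18.2% for H3R2A (29.9%). With lists cut to 598 peaks they were 23.8% and 36.6% for Spp1-myc, 32.1% for Bre2-myc, 26.5% for CXXC-deleted, 20.2% for H3K4R, 25.3% for H3 wild type and 19.9% for H3R2A. Requiring 50% of a region to be covered gave 44.6% for Spp1-myc at 6 h, 28.6% for PHD-deleted, 42.0% for CXXC-deleted and 21.7% for H3K4R. Regions at least 500 bp from older peaks gave 57.5% for Spp1-myc at 6 h and 27.6% for H3K4R. The cut of the lists by itself lowers presence; the cause of the other shifts was not tested. Presence thus depends on list length and score.

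The calls over time in the H3 strains were the least stable. With strain as stratum 4 new regions were higher, and with higher-scoring peaks only 4 were lower. Leaving out a replicate of a strain gave 0 to 4 higher and 0 to 1 lower. Without the 4 h library of H3R2A replicate 1 there were 8 higher and 3 lower. The replicate block gave 5 higher and 2 lower and 0 calls in the other comparisons. Differences between same-numbered libraries correlated between -0.1 and 0.21 in 12 pairs, over 0.1 in 2. These weak values give no clear sign that the numbers pair the libraries, but peak presence alone cannot exclude pairing. The other 93 values kept their side of the threshold or, like those of H3 wild type and H3R2A under cut lists, moved by less than the spread between replicates. Depth is unknown, so a missing peak sets no limit on occupancy.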
